A study of Oryza sativa with 12 samples.

Results

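RAB16B, RAB21 and Dhn1 are rice genes for dehydrins, proteins named for their appearance in drying tissue. They were picked out by name, as 3 of the 17905 genes that the array's probe-to-gene table pairs with a probe set. No measured value entered that rule, but earlier results of these data were known when the members were chosen. The probe set with the highest mean signal stood for each gene, and any other probe sets of the gene served as a check. RAB21, which is also called RAB16A, and RAB16B are neighbours on chromosome 11, at one end of a group of 4 RAB16 genes that runs in the order RAB16D, RAB16C, RAB16B, RAB21. Between RAB16C and RAB16B the gene table places 2 other genes, and between the other neighbours 0. Dhn1, also named LIP9, lies on chromosome 2.

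Dehydrins are highly hydrophilic proteins of the late embryogenesis abundant (LEA) class, and they are thought to shield membranes and other proteins when cells lose water. Rice RAB16 genes are textbook targets of abscisic acid, the hormone of drought and seed maturation: its receptors (PYL proteins) block clade A protein phosphatases 2C, which frees SnRK2 kinases to activate bZIP transcription factors that bind the promoters of these genes. Gibberellin, which often acts against abscisic acid, binds the receptor GID1, and the F-box protein GID2 then marks the DELLA repressor SLR1 for degradation. Dhn1 is a dehydrin known for induction by cold as well as by drought.

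Shoots of 4 rice lines were profiled on an Affymetrix array with 3 biological replicates per line, 12 arrays in all: the mutants gid1-3, gid2-1 and slr1 (k1001), and Taichung 65 (T65), the cultivar from which all the mutants derive. All plants grew in a greenhouse under natural conditions and were sampled 5 weeks after germination; no plants treated with abscisic acid, gibberellin or drought are part of the design. The labels do not say whether the k1001 allele loses or gains function, and each mutant line rests on 1 allele. The question the design poses is how transcript levels in shoots differ when gibberellin signalling is changed at the receptor, the F-box protein or the DELLA protein.

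Signals are the deposited linear intensities, and all differences are on the log2 scale. A background level was set on each array as the 95th percentile of its 64 reporter-gene control probe sets, which match no rice transcript; it lay between 28.3 and 52.2, and 54.7 to 63.1% of probe sets exceeded it. Differences were tested with limma over 57194 probe sets and called at a Benjamini-Hochberg adjusted p under 0.05. Every adjusted p below comes from that fit unless an exact test is named, and errors after ± are SD for signals and SE for log2 differences. Of the 5 green-tissue markers, RBCS, CAB2R and RCA averaged 15533 to 29855 in every line and PSAG averaged 814 in gid2-1 and 4946 or more in the other lines, while the RBCS1 probe set was below the reporter level on all arrays. The mean trimmed by 2% at each end was 500.1 on all 12 arrays, as scaling by the depositors would set it, and the median signal ran between 58.0 and 75.8.

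RAB21 was the member whose level differed between all 4 lines. Its signal was 278, 226 and 266 on the 3 gid1-3 arrays, 224, 209.7 and 152 on the gid2-1 arrays, 1558, 1659 and 1490.5 on the slr1 arrays, and 730.6, 701 and 761.5 on the T65 arrays. Every slr1 array was above every T65 array, and every T65 array was above all 6 arrays of the gid mutants. The gid1-3 and gid2-1 arrays did not overlap, but the lowest gid1-3 array was only just above the highest gid2-1 array.

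Against T65, RAB21 fell by 1.51 ± 0.13 on the log2 scale in gid1-3 (adjusted p = 1.7e-07), a signal 2.86-fold lower. In gid2-1 it fell by 1.92 ± 0.13 (adjusted p = 1.5e-08), which is 3.79-fold lower. In slr1 it rose by 1.10 ± 0.13 (adjusted p = 1.3e-05), which is 2.14-fold higher. These 3 comparisons share the T65 arrays. In a bulk shoot, fewer cells that make a transcript and less transcript per cell cannot be told apart.

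Comparisons between the mutants do not use the T65 means. RAB21 was higher in slr1 than in gid1-3 by 2.61 ± 0.13 (adjusted p = 4.6e-10), or 6.12-fold, and higher than in gid2-1 by 3.02 ± 0.13 (adjusted p = 9e-11), or 8.14-fold. Between the gid mutants, RAB21 was higher in gid1-3 than in gid2-1 by 0.41 ± 0.13 (adjusted p = 0.032), an interval of 0.14 to 0.68. That small difference was no longer called without gid1-3 replicate 1 or 3 or without gid2-1 replicate 3, and it ranged from 0.24 to 0.52 as each array was left out in turn. The order of RAB21 was therefore slr1, T65, gid1-3 and gid2-1, with the last step the least certain.

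A second RAB21 probe set, whose name marks it as one that can also bind related transcripts, gave the same order of lines. Its signal was 198, 265 and 272 in gid1-3, 143, 145 and 167 in gid2-1, 859, 867 and 892 in slr1, and 482, 464 and 490.05 in T65. Its differences from T65 were -0.98 in gid1-3 (adjusted p = 8.8e-06), -1.66 in gid2-1 (3.4e-08) and 0.87 in slr1 (6.7e-05), so each was smaller than that of the first probe set. The step from gid1-3 to gid2-1 was called with this probe set too, at 0.68 (adjusted p = 5.2e-04).

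**Figure D1:**
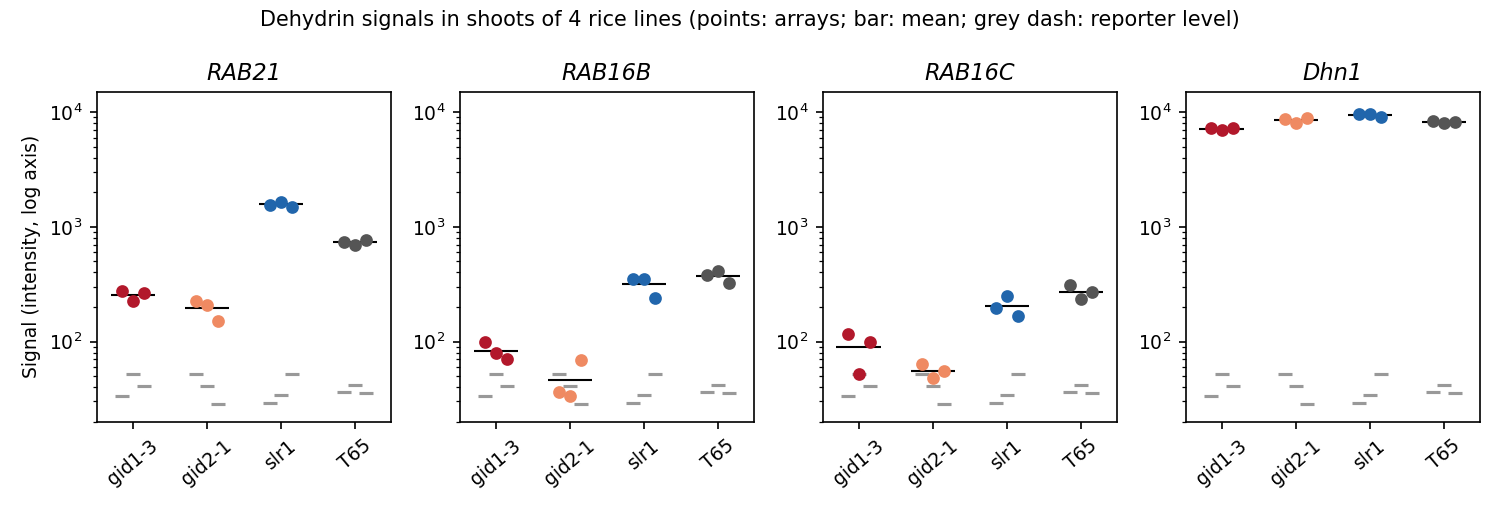
Signal (intensity, log axis) of RAB21, RAB16B, RAB16C and Dhn1 on each of the 12 arrays, 3 per line, with the mean of each line as a horizontal bar and dashes for the reporter level of each array. RAB21 in slr1 lies at 1490.5 to 1659, above T65 at 701 to 761.5. RAB16B in slr1 and T65 overlaps. In gid2-1 only 1 of 3 RAB16B signals, at 68.7, lies above the reporter level of its array. Dhn1 stays between 6959 and 9719 on all arrays.

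RAB16B, the neighbour of RAB21, was low in both gid mutants but was not higher in slr1. Its signal was 99.1, 79.1 and 69.8 in gid1-3, 36.0, 33.5 and 68.7 in gid2-1, 351, 354 and 241 in slr1, and 379.7, 408 and 324 in T65. All 6 arrays of the gid mutants were below every slr1 and T65 array, while the slr1 and T65 arrays overlapped. In gid2-1 only 1 of 3 arrays was above its reporter level, so that the size of the fall in that line is not fully resolved.

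RAB16B fell by 2.17 ± 0.26 in gid1-3 against T65 (adjusted p = 8.3e-06), a signal 4.51-fold lower. In gid2-1 it fell by 3.08 ± 0.26 (adjusted p = 2.3e-07), which is 8.47-fold lower; with each signal under the reporter level set to that level, it was 6.99-fold lower. In slr1 the difference from T65 was -0.25 ± 0.26 (adjusted p = 0.64), with a 95% interval of -0.81 to 0.31. That interval leaves out a rise of the size seen for RAB21.

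RAB16B was higher in slr1 than in gid1-3 by 1.93 ± 0.26 (adjusted p = 3.1e-05), or 3.80-fold, and higher in slr1 than in gid2-1 by 2.83 ± 0.26 (adjusted p = 5.8e-07), or 7.13-fold, which is 5.88-fold with signals under the reporter level set to it. It was higher in gid1-3 than in gid2-1 by 0.91 ± 0.26 (adjusted p = 0.021), although the lowest gid1-3 array, at 69.8, hardly cleared the highest gid2-1 array, at 68.7, and the same floor made the difference 0.63. This call was lost without gid1-3 replicate 1 and without gid2-1 replicate 1 or 2, and the difference ranged from 0.72 to 1.24 as each array was left out in turn. T65 and slr1 could thus not be ordered for RAB16B, and both stood above gid1-3 and gid2-1.

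Dhn1 was the bright member and the one that moved least. Its signal was 7333, 6959 and 7280.4 in gid1-3, 8763, 8014 and 8875 in gid2-1, 9568, 9719 and 9060.1 in slr1, and 8345, 8066 and 8286 in T65. The gid1-3 arrays were below all others and the slr1 arrays above all others, while the gid2-1 arrays overlapped those of T65. Its spread within a line was small, with a coefficient of variation of 2.81% in gid1-3, 5.48% in gid2-1, 3.65% in slr1 and 1.79% in T65, against 18.2%, 42.7%, 20.4% and 11.6% for RAB16B.

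Dhn1 fell by 0.20 ± 0.06 in gid1-3 against T65 (adjusted p = 0.015), and it rose by 0.20 ± 0.06 in slr1 (adjusted p = 0.021). Both are changes of 1.15-fold. In gid2-1 the difference was 0.05 ± 0.06 (adjusted p = 0.60), with an interval of -0.07 to 0.17, so a fall as large as in either chromosome 11 gene lies far outside it. The call in gid1-3 was lost without T65 replicate 1 or 3 or without gid1-3 replicate 2, with values of -0.21 to -0.17. The call in slr1 was lost when any T65 array was left out, and also without slr1 replicate 1 or 2, with values of 0.18 to 0.23.

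Between the mutants, Dhn1 was higher in slr1 than in gid1-3 by 0.39 ± 0.06 (adjusted p = 5.4e-05) and lower in gid1-3 than in gid2-1, by -0.25 ± 0.06 (adjusted p = 0.0045). Between slr1 and gid2-1 the difference was 0.14 ± 0.06 (adjusted p = 0.075), with an interval of 0.02 to 0.27 and no overlap between the arrays. It was called without gid2-1 replicate 3. The order of Dhn1 was slr1, gid2-1, T65 and gid1-3, in which slr1 and gid2-1, and gid2-1 and T65, did not differ past the threshold. The differences of slr1 and of gid1-3 from T65 were called in the main fit but not under several other settings, which the closing section gives. The other Dhn1 probe sets lay below the reporter level on all arrays except 1 slr1 array of 1 of them, so they give no check on these small differences.

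Read over the array as a whole, the counts of members called were as follows. In gid1-3 against T65 all 3 members were lower, where 30.6% of the 17905 genes were called lower and 25.8% higher. In gid2-1 against T65, RAB16B and RAB21 were lower and Dhn1 was not called, where 25.3% of genes were called lower and 25.4% higher. In slr1 against T65, RAB21 and Dhn1 were higher and RAB16B was not called, where 17.3% of genes were called higher and 22.2% lower.

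With so many genes called, the sizes say more than the counts. The median difference of the 3 members from T65 is in each line the value of a single gene. It was -1.51 in gid1-3 (RAB21), against a median of -0.04 over all genes. In gid2-1 it was -1.92 (RAB21), against 0.01, and in slr1 it was 0.20 (Dhn1), against -0.06. In gid1-3, 3.13% of genes fell further than RAB16B and 6.80% further than RAB21. In gid2-1, 2.33% of genes fell further than RAB21. No such share is given for RAB16B, which was above the reporter level on only 1 of 3 arrays there. In slr1, 3.91% of genes rose further than RAB21. Dhn1 was unremarkable by this measure, with 40.5% of genes lower by more in gid1-3 and 27.9% higher by more in slr1.

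Between the mutants, all 3 members were higher in slr1 than in gid1-3, where 27.2% of genes were called higher and 28.3% lower. RAB16B and RAB21 were higher in slr1 than in gid2-1, where 23.9% of genes were called higher and 28.8% lower. In gid1-3 against gid2-1, RAB16B and RAB21 were higher and Dhn1 was lower, where 17.5% of genes were called higher and 23.4% lower. The median of the members was 1.93 (RAB16B), 2.83 (RAB16B) and 0.41 (RAB21) in these comparisons, against -0.02, -0.05 and -0.05 over all genes.

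**Figure D2:**
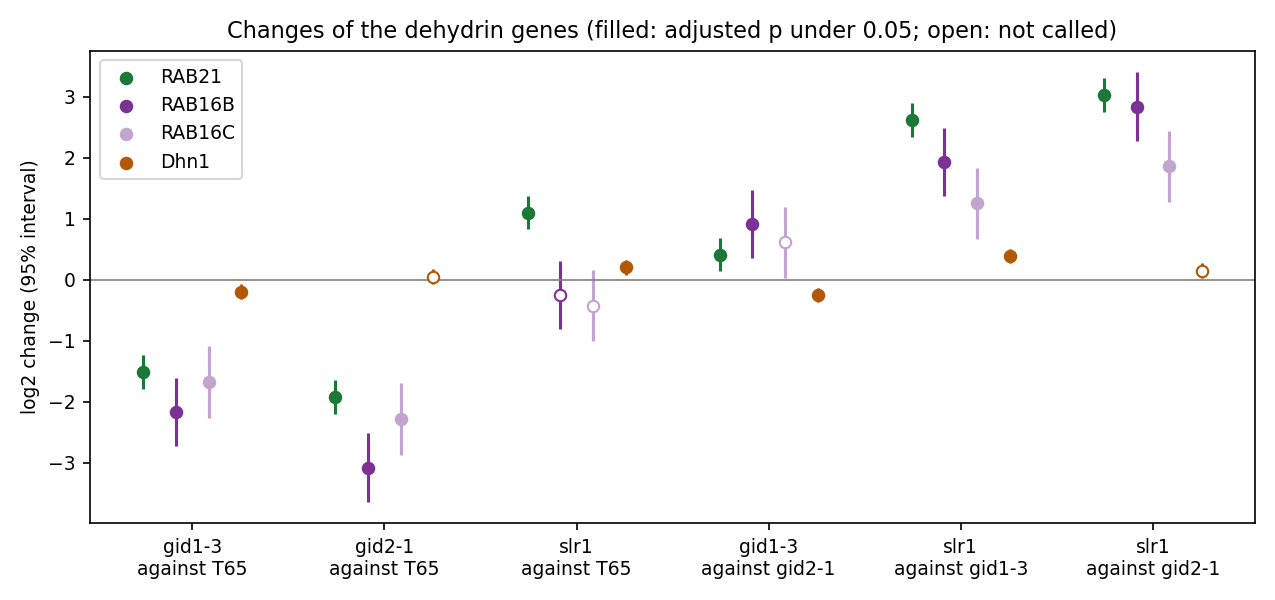
Log2 difference in signal (vertical axis) of RAB21, RAB16B, RAB16C and Dhn1 in each of the 6 comparisons between lines, with 95% confidence intervals from the fit over 12 arrays; filled points passed the adjusted p threshold of 0.05 and open points did not, and the horizontal line marks 0. RAB21, RAB16B and RAB16C lie far below 0 in gid1-3 and gid2-1 against T65, RAB21 alone of these lies above 0 in slr1 against T65, and the intervals of Dhn1 are the narrowest.

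The other RAB16 genes of the chromosome 11 group are given because they neighbour RAB16B and RAB21, and were chosen after their values were seen. RAB16C had signals of 117, 52.3 and 98.3 in gid1-3, 64.2, 47.9 and 55.1 in gid2-1, 195, 248 and 167 in slr1, and 312, 235 and 268 in T65. Like RAB16B, it was below every T65 array on all 6 arrays of the gid mutants and overlapped T65 in slr1. It fell by 1.68 ± 0.27 in gid1-3 (adjusted p = 1.7e-04) and by 2.29 ± 0.27 in gid2-1 (adjusted p = 9.1e-06), while in slr1 the difference from T65 was -0.43 ± 0.27 (adjusted p = 0.36).

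RAB16D was too dim to place. It was above the reporter level on 2 of 3 arrays in gid1-3, 0 in gid2-1, 3 in slr1 and 2 in T65. Its difference from T65 in gid2-1 was -1.94 ± 0.65 (adjusted p = 0.041), a call that 8 of 15 other settings ended, and 1.39-fold lower when signals under the reporter level were set to it. In gid1-3 and slr1 it was not called against T65, at -0.31 and 0.45.

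Because RAB21 and RAB16B are neighbours, the difference between their log2 signals was formed within each array; it shows only whether their changes were unequal. It was 1.65 ± 0.25 in gid1-3, 2.14 ± 0.86 in gid2-1, 2.33 ± 0.26 in slr1 and 0.99 ± 0.23 in T65 (SD, n = 3 each). The slr1 arrays, at 2.15, 2.23 and 2.63, and the gid1-3 arrays, at 1.49, 1.52 and 1.93, were all above the T65 arrays, at 0.94, 0.78 and 1.23. In gid2-1 the values of 2.64, 2.65 and 1.15 overlapped those of T65. The values of 2.64 and 2.65 come from arrays on which RAB16B was under the reporter level, so their size is not resolved.

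The excess over T65 was 1.35 in slr1 and 0.66 in gid1-3, each with a two-sided exact permutation p of 0.1, which is the smallest that 3 arrays against 3 allow. In gid2-1 it was 1.16 (exact permutation p = 0.2). RAB21 set against RAB16C gave an excess of 1.53 in slr1 (exact permutation p = 0.1), with 2.96 ± 0.21 in slr1 and 1.44 ± 0.19 in T65, and of 0.16 in gid1-3 (exact p = 0.8) and 0.36 in gid2-1 (exact p = 0.3). RAB16B set against RAB16C gave -0.50, -0.80 and 0.18 in gid1-3, gid2-1 and slr1 (exact p = 0.3, 0.3 and 0.5). The gid2-1 values that use RAB16B, 1.16 and -0.80, rest in part on signals under the reporter level. Over the 9 such tests, none could pass the threshold after adjustment, where each exact p of 0.1 became 0.3. The sequences of the RAB16 probes were not examined here, so how far these probe sets bind each other's transcripts was not tested.

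Genes with a profile most like that of each member were ranked by Pearson's r of the log2 signal over the 12 arrays, among 2194 named genes at or above the median level. The values describe 12 arrays that fall into 4 lines, so differences between lines set most of each r. For RAB16B the nearest were CASPL1E1 (r = 0.987), a Casparian-strip-like membrane protein gene, NtrC (0.982), the plastid NADPH-dependent thioredoxin reductase, the tubby-like TLP14 (0.974), HAP3F (0.973), which encodes an NF-Y subunit, and AT7 (0.973). RAB16C held rank 42 (0.939), RAB21 rank 137 (0.872) and Dhn1 rank 771 (0.408).

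The profile that RAB16B shared with these genes was low in both gid mutants and about equal in slr1 and T65. AT7 departed from it in part, at 4708 in slr1 and 5889 in T65. CASPL1E1 averaged 902 ± 101 in gid1-3, 619 ± 143 in gid2-1, 1526 ± 168 in slr1 and 1645 ± 50.7 in T65 (SD, n = 3 each). NtrC averaged 1461.5, 1239.8, 2249.5 and 2264 in the same lines. The probe set of TLP14 can also bind related transcripts.

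For RAB21 the nearest were HAP3I (r = 0.987), which also encodes an NF-Y subunit, the beta-expansin EXPB7 (0.979), PSB28 (0.978), a photosystem II assembly factor, AT1 (0.976) and PAD1 (0.974). These were low in the gid mutants and highest in slr1, as RAB21 was. HAP3I averaged 422.5 ± 51.8 in gid1-3, 339 ± 33.3 in gid2-1, 1188 ± 93.3 in slr1 and 849 ± 40.9 in T65, with a probe set that can bind related transcripts. PSB28 averaged 1169 in gid1-3, 715 in gid2-1, 4455 in slr1 and 3052 in T65.

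For Dhn1 the nearest were genes of another kind: the A-type cyclin gene CYCA2-1 (r = 0.973), the homeodomain-leucine zipper gene HOX2 (0.971), the histone gene H2B.6 (0.958), the kinesin gene KIN5C (0.946) and 11N3 (0.944), which encodes a SWEET sugar transporter. They were lowest in gid1-3 and highest in slr1, with gid2-1 near T65. CYCA2-1 averaged 218 ± 23.2 in gid1-3, 448 ± 45.7 in gid2-1, 735 ± 134 in slr1 and 445 ± 41.8 in T65. Its changes were therefore far larger than those of Dhn1, since r compares shapes and not sizes. RAB21 held rank 398 for Dhn1 (0.618) and RAB16B rank 618 (0.408). The probe set of 11N3 can also bind other transcripts.

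**Figure D3:**
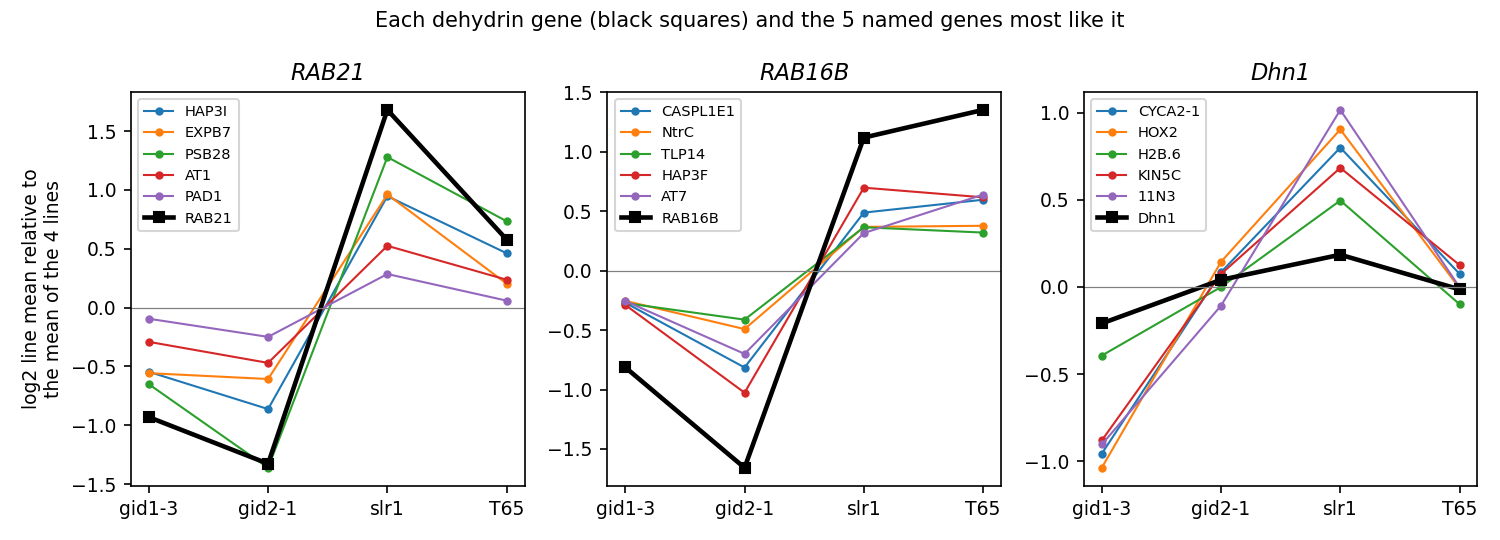
Mean log2 signal of each line relative to the mean of the 4 lines, for RAB16B, RAB21 and Dhn1 and the 5 genes most like each, with lines on the horizontal axis and the member drawn in bold. RAB16B and its neighbours in rank are low in both gid mutants, RAB21 and its neighbours also peak in slr1, and Dhn1 runs almost flat beside genes that follow its order with larger steps.

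Of the abscisic acid and dehydration genes named around the members, 41 were measured. In gid1-3 against T65, 8 were higher, 18 lower and 15 not called; in gid2-1, 10, 14 and 17; and in slr1, 9, 13 and 19. Over all genes, 25.8% were higher and 30.6% lower in gid1-3, 25.4% and 25.3% in gid2-1, and 17.3% and 22.2% in slr1. These shares also stand beside the counts of each list below. Nothing particular to these 41 genes is read from their counts. Their medians were -0.23, -0.12 and -0.01 in these lines. Upstream of the dehydrins, ABA1, the zeaxanthin epoxidase gene of abscisic acid synthesis, was the only gene of its list that was measured. It fell by 0.85 in gid1-3 (adjusted p = 1.6e-07) and by 0.92 in gid2-1 (8.5e-08), and its difference from T65 in slr1 was -0.01 (0.95).

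ABA8OX1, whose product begins the breakdown of abscisic acid by 8'-hydroxylation, was higher in every mutant. It averaged 11832 ± 62.0 in gid1-3, 14550.4 ± 1298 in gid2-1, 8214 ± 557 in slr1 and 5343 ± 171 in T65. The rises over T65 were 1.15, 1.44 and 0.62 (adjusted p = 4.1e-09, 3.9e-10 and 9e-06). The related ABA8OX2, with a probe set that can bind other transcripts, fell by 0.41 in gid1-3 and by 0.59 in gid2-1, with -0.02 in slr1.

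The clade A phosphatases 2C, which hold the pathway off, were lower wherever they were called. Over all genes, 30.6%, 25.3% and 22.2% were called lower in gid1-3, gid2-1 and slr1. Of 7 phosphatase genes measured, 6 fell in gid1-3, 5 in gid2-1 and 5 in slr1, and 0 rose in any of these lines. Their medians were -1.75, -0.83 and -0.50. PP2C68 averaged 393 ± 25.2 in gid1-3, 461 ± 50.7 in gid2-1, 1525 ± 14.8 in slr1 and 2536 ± 44.6 in T65. It fell by 2.69 in gid1-3 (adjusted p = 2.3e-12), by 2.47 in gid2-1 (6e-12) and by 0.73 in slr1 (6.8e-06).

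PP2C30, PP2C06 and PP2C53, of the same family, also fell in all mutants. PP2C30 fell by 1.93, 1.30 and 0.50 in gid1-3, gid2-1 and slr1, PP2C06 by 1.47, 0.77 and 0.33, and PP2C53 by 0.84, 0.83 and 0.75. In slr1 these 4 phosphatase genes thus moved against RAB21, and in the gid mutants in the same direction as RAB21, a contrast that was not tested. The rest of the list did not all follow them: in slr1 the difference from T65 was 0.02 for PP2C09 (adjusted p = 0.90) and 1.13 for PP2C51 (0.41), and in gid2-1 it was -0.15 for PP2C08 (0.35) and 0.42 for PP2C51 (0.79).

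Receptors and kinases had no common direction. PYL5, the 1 receptor gene measured, rose by 0.34 in gid2-1 and fell by 0.32 in slr1, with -0.08 in gid1-3 (adjusted p = 0.33). Both calls were lost with arrays centred on their medians, and the rise in gid2-1 also with spiked controls. Of the 10 SnRK2 genes, gid1-3 had 2 higher and 3 lower, gid2-1 had 4 higher and 2 lower, and slr1 had 1 higher and 4 lower. With spiked controls 5 were lower in gid1-3 and 4 in gid2-1. SAPK2 rose by 0.61, 1.04 and 0.52 in these lines, and SAPK4 fell by 0.94, 0.94 and 0.44. SAPK9, whose probe set can bind related transcripts, fell by 1.22 in gid1-3, rose by 2.44 in gid2-1 and fell by 1.01 in slr1.

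Among transcription factors that act on such promoters, BZIP23 rose by 0.58 in slr1 (adjusted p = 3.1e-06) and by 0.23 in gid2-1 (0.0066), with 0.05 in gid1-3 (0.59). TRAB1, the bZIP factor that binds VP1, fell by 0.32 in slr1 (0.0059) and by 0.27 in gid1-3 (0.011), with -0.18 in gid2-1 (0.10). Median centring ended the call of BZIP23 in gid2-1 and both calls of TRAB1. The BZIP23 call was also lost with spiked controls and with no trend in the variance, and the TRAB1 call in gid1-3 with no trend and without gid1-3 replicate 2. VP1 itself, the seed regulator, was below the reporter level on all 12 arrays. Of 7 DREB genes, which encode factors of the cold and drought response, gid1-3 had 2 higher and 2 lower, gid2-1 had 2 higher and 1 lower, and slr1 had 3 higher and 0 lower. These small counts were not stable. In slr1 the number higher ran from 1 to 3 over the settings. It was 1 without T65 replicate 1 or slr1 replicate 3, or with either centring. In slr1, 1 was lower without slr1 replicate 2, with spiked controls or with replicate number as a block. In gid1-3, 1 was lower without T65 replicate 2, gid1-3 replicate 2 or gid1-3 replicate 3, with median centring or with no trend. With spiked controls 1 was higher in gid1-3. In gid2-1, 1 was higher without T65 replicate 3 or gid2-1 replicate 3, or with either centring.

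NAC5, a stress-responsive NAC factor gene, had the pattern of RAB21 in sign. It averaged 2848 ± 41.6 in gid1-3, 2437 ± 228 in gid2-1, 5579 ± 218 in slr1 and 4209 ± 351 in T65. It fell by 0.56 in gid1-3 (adjusted p = 2.5e-05) and by 0.79 in gid2-1 (8e-07), and it rose by 0.41 in slr1 (8.9e-04). The rise in slr1 was not called when arrays were centred on their medians. SNAC2, the other NAC gene measured, went the other way in gid1-3 and slr1: it averaged 13268 ± 599 in gid1-3, 10030.3 ± 871 in gid2-1, 7859 ± 241 in slr1 and 10578 ± 237 in T65, with differences from T65 of 0.33 (0.0012), -0.08 (0.47) and -0.43 (2e-04). The rise of SNAC2 in gid1-3 was not called with quantile normalization or with spiked controls. With spiked controls SNAC2 was called lower in gid2-1, as NAC5 was.

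Of 8 other LEA and dehydration genes, RAB16C and RAB16D included, gid1-3 had 2 higher and 3 lower, gid2-1 had 1 higher and 3 lower, and slr1 had 2 higher and 1 lower. Their medians were -0.25, -0.81 and 0.09. Over the settings that kept all 8 genes, 2 to 4 were lower in gid1-3 and in gid2-1. In gid1-3 and in slr1, 1 to 2 were higher. RAB25, another gene of this list, was above the reporter level on 0 gid1-3 arrays, and RAB16D on 0 gid2-1 arrays. These counts and medians therefore include background signal. LEA3, a LEA protein gene with a probe set that can bind related transcripts, averaged 368 ± 36.5 in gid1-3, 201 ± 22.4 in gid2-1, 370.3 ± 35.6 in slr1 and 675 ± 73.2 in T65. It fell by 0.88, 1.75 and 0.87 in the 3 mutants, so in slr1 it moved against RAB21. SALT, a salt-induced lectin gene, rose by 1.43, 0.50 and 0.36. With spiked controls the rise of SALT in slr1 was not called.

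EM, a LEA gene known from seeds and, like the RAB16 genes, from responses to abscisic acid, was named after its values were seen as the other gene of this list that rose in slr1. Its signal was 50.01, 76.7 and 41.4 in gid1-3, 52.1, 46.0 and 39.9 in gid2-1, 153, 155 and 168 in slr1, and 46.3, 44.9 and 71.6 in T65. All slr1 arrays were above every other array, and EM rose in slr1 by 1.58 ± 0.31 (adjusted p = 0.0015). In the gid mutants, where RAB21 and RAB16B fell, its differences from T65 were 0.03 in gid1-3 (0.96) and -0.21 in gid2-1 (0.72), on signals close to the reporter level.

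**Figure D4:**
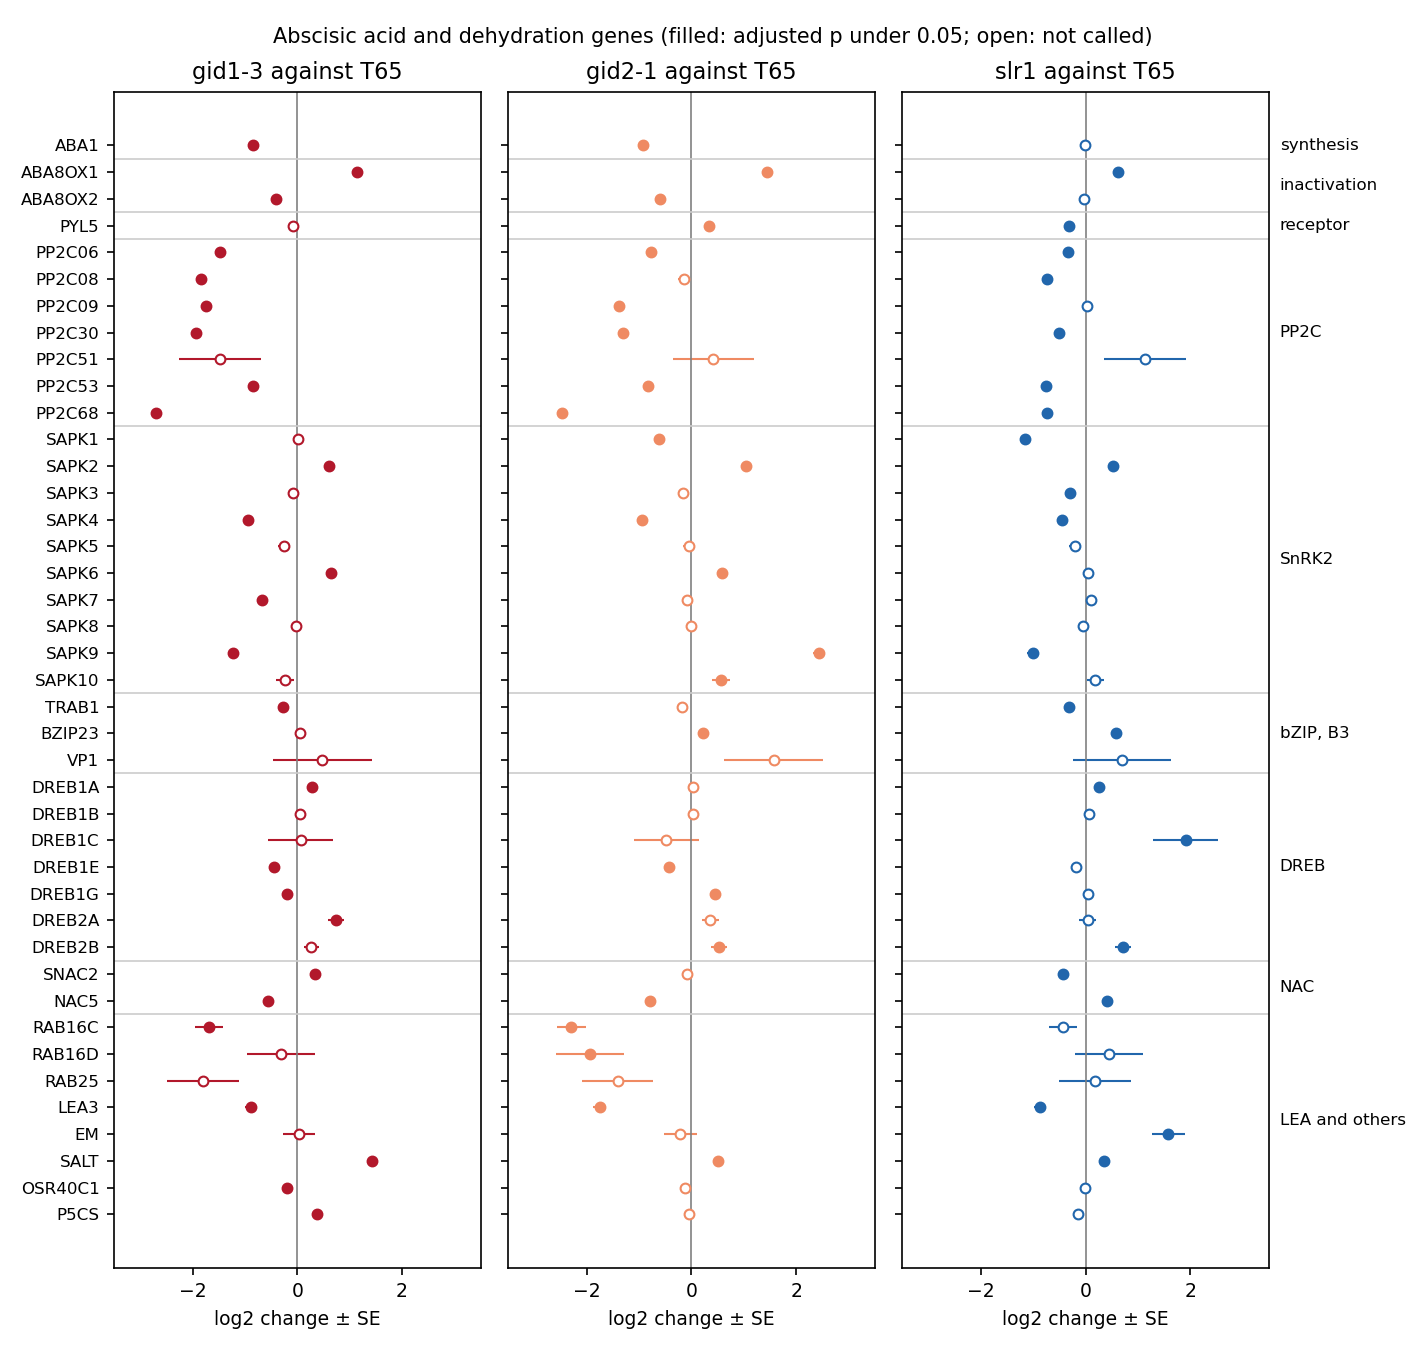
Log2 difference from T65 in gid1-3, gid2-1 and slr1 of the 41 measured abscisic acid and dehydration genes, grouped by role, with filled points for called differences and open points for the rest. The clade A phosphatases lie to the left of 0 wherever they are called, ABA8OX1 lies to the right in all 3 mutants, and the kinases and DREB genes fall on both sides.

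Of the genes that define the lines, GID1 and SLR1 were measured as well. GID1 rose by 0.51 in gid1-3 and by 0.44 in gid2-1, and fell by 0.87 in slr1 (adjusted p = 3.4e-06, 1.9e-05 and 3.1e-08). SLR1 fell by 0.65 in gid1-3 and by 0.19 in gid2-1, and rose by 0.27 in slr1 (adjusted p = 8.1e-07, 0.036 and 0.0051). The call in gid2-1 was lost under 8 of 15 settings, among them leaving out T65 replicate 2 or 3 or gid2-1 replicate 1 or 3, and the call in slr1 with either centring. A transcript still present in a mutant does not check the label, because the labels do not give the lesion, and no probe set was paired with GID2 alone.

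Dehydrins and related genes are abundant in maturing embryos, so markers of other tissues were read beside the members. Over all genes, 25.8% were called higher and 30.6% lower in gid1-3, 25.4% and 25.3% in gid2-1, and 17.3% and 22.2% in slr1. Of 7 embryo and seed markers, 1 was called higher in gid1-3, 3 in gid2-1 and 2 in slr1, and 0 lower. Their summed signal was 3469 to 3606 on the gid1-3 arrays, 3145 to 3349 on the gid2-1 arrays, 2481 to 2777 on the slr1 arrays and 1833 to 1889 on the T65 arrays. GLB, a seed globulin gene, made up most of that sum, at means of 2749, 2385, 1633 and 1142 in these lines. GLUA1 and VP1 were below the reporter level on all arrays, so a call of either would rest on background signal.

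GLB was called higher in the gid mutants, where RAB21 and RAB16B were lower, and in slr1, where RAB21 was higher, and the part of the seed markers in these results was not tested. Beside the shares over all genes given above, 2 of 5 green-tissue markers were higher in gid1-3, 2 lower in gid2-1 and 0 called in slr1. Their summed signal was 82432 to 90199 in gid1-3, 51770.2 to 68605 in gid2-1, 70138 to 93387 in slr1 and 70041 to 75161 in T65, and its part in the low RAB16B and RAB21 of gid2-1 was not tested. The 2 root markers summed to 558 to 582 in gid1-3, 1614 to 1797 in gid2-1, 790.5 to 858 in slr1 and 546 to 585 in T65, almost all of it LSI1, which was called higher in gid2-1 and slr1; its part in the results of the members was not tested. Of the 4 anther markers 0 were called, with C6, RTS and TDR averaging 4.1 to 22.4 over the lines and MTR1 averaging 811 in gid1-3, 818 in gid2-1, 1011 in slr1 and 799.7 in T65.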

How the data were processed

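Total RNA from shoots was converted to biotinylated cRNA and hybridised to an Affymetrix rice array, per the labels' protocols. The deposited values are linear probe-set intensities; the software is not given in the sources used here, and per the values the authors' trimmed mean is equal on all arrays. Of 57381 probe sets, 187 controls were left out. After a floor of 1, signals were put on the log2 scale. A mean per line was estimated from 12 arrays (limma 3.58.1, R 4.3.3; lmFit, then eBayes, with the prior variance following the mean signal), with Benjamini-Hochberg adjustment over 57194 probe sets. Exact permutation tests used SciPy 1.17.1. Tests across probe sets were tried on simulated data. The arrays' number limits the precision.

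The probe-to-gene table gave 1 gene for 22436 probe sets, several for 95 and none for 34663; 2428 of 17905 genes had a name. The members, gene lists and tests were chosen with earlier results of these data known. Named were the members, the 5 genes most like each, and for each list those called in all 3 mutants or otherwise up to 4 with the smallest p. RAB16C, RAB16D, RAB25, EM, ABA8OX2, SNAC2, PP2C08, PP2C09, PP2C51 and seed and green-tissue markers given as examples lie outside this rule. Symbols without an entry in the gene table, among them most PYL names, were not analysed here. No coordinates or sequences are given. Alternatives are listed with their effect in the closing section. Replicate numbers were not used as a block: deviations of same-numbered arrays correlated at -0.28 to 0.21, with 4 of 18 over 0.1.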

Additional observations from a re-analysis of the deposited data

How the results depend on the processing

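RAB16B and RAB21 kept their direction and call in gid1-3 and in gid2-1 against T65, and in slr1 against both gid mutants, and RAB21 also in slr1 against T65, with quantile normalization, with arrays centred on medians or on 18 spiked control probe sets, without dim or cross-hybridizing probe sets, without a variance trend, with only the arrays compared, with a replicate block, with a pseudocount of 16 and without each array. Of 57 called results of named pathway genes, 45 were called under every setting tried, a check added after seeing the data. Precision rests on 3 arrays per line, and for RAB16B in gid2-1 background limits it.

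Calls between the gid mutants were less stable. RAB16B was 0.91 with no trend (adjusted p = 0.058) and 0.91 with only the arrays compared (0.16). RAB21 was 0.38 with spiked controls (0.058), 0.41 with no trend (0.10) and 0.41 with only the arrays compared (0.15). Dhn1 in gid1-3 against T65 was -0.14 with median centring (0.52), -0.20 with no trend (0.095), -0.05 as a mean of its probe sets (0.94), and 0.77 (0.61) and -0.73 (0.67) for the dim probe sets alone. In gid2-1 against T65 Dhn1 was -0.01 with median centring (0.98) and -0.14 with spiked controls (0.27). In slr1 against T65 it was 0.12 with quantile normalization (0.24), 0.19 with median centring (0.45), 0.12 with spiked controls (0.42), 0.20 with no trend (0.13), 0.92 as a mean (0.063), and 1.33 (0.38) and 1.23 (0.47) for the dim probe sets. In gid1-3 against gid2-1 it was -0.13 with median centring (0.60), -0.25 with no trend (0.053), -0.13 as a mean (0.86), and 0.64 (0.72) and -0.79 (0.67) for the dim probe sets. In slr1 against gid1-3 it was 0.33 with median centring (0.082), and 0.56 (0.73) and 1.96 (0.15) for the dim probe sets. In slr1 against gid2-1 it was 0.26 with spiked controls (0.029). The causes were not tested.

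Leaving out each array gave ranges for RAB16B of -2.31 to -2.06 in gid1-3, -3.41 to -2.89 in gid2-1 and -0.34 to -0.07 in slr1 against T65, 0.72 to 1.24 in gid1-3 against gid2-1, and 1.81 to 2.11 and 2.64 to 3.16 in slr1 against gid1-3 and gid2-1. For RAB21 they were -1.57 to -1.42, -2.03 to -1.75, 1.06 to 1.14, 0.24 to 0.52, 2.53 to 2.68 and 2.85 to 3.13. For Dhn1 they were -0.21 to -0.17, 0.03 to 0.10, 0.18 to 0.23, -0.29 to -0.22, 0.37 to 0.42 and 0.10 to 0.17.

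Probe sets called in slr1 against T65 numbered 7348 with median centring (3548 higher, 3800 lower), against 11380. Spiked controls moved the median of all probe sets by -0.23, -0.19 and -0.08 in gid1-3, gid2-1 and slr1 against T65, where calls split 4766 higher to 12116 lower, 4842 to 9856 and 3793 to 6931, against 8068 to 8810, 7836 to 7103 and 5202 to 6178. In slr1 they split 9675 to 5569 against gid1-3 and 7935 to 5961 against gid2-1, where the median moved by 0.15 and 0.12, in place of 8064 to 8536 and 6961 to 8681. Median centring split gid1-3 against gid2-1 at 4943 to 3975, in place of 5182 to 6864. Leaving out each array gave 15032 to 15612, 13041 to 14109, 9421 to 10471, 10507 to 11189, 14830 to 15619 and 13656 to 14751 calls in the order above. With the replicate block the counts were 16761, 14859, 11234, 11906, 16535 and 15451, RAB16B in gid1-3 was -2.17, and no call of a member changed; of 12 arrays, 4 correlated best with their own number.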

Other observations

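Single DREB genes, which encode factors of the cold and drought response, differed in which mutant they moved. DREB1E fell by 0.44 ± 0.07 in gid1-3 (limma adjusted p = 9.1e-05) and by 0.43 ± 0.07 in gid2-1 (1.1e-04), with -0.19 in slr1 (0.060). DREB1G fell by 0.20 in gid1-3 (0.015) and rose by 0.46 in gid2-1 (1.8e-05), with 0.04 in slr1 (0.79); the fall in gid1-3 was not called under 5 of 15 settings. DREB2A rose by 0.74 ± 0.16 in gid1-3 (0.0018), with 0.36 in gid2-1 (0.12) and 0.04 in slr1 (0.92). DREB2B rose by 0.53 in gid2-1 (0.014) and by 0.71 in slr1 (0.0028), with 0.27 in gid1-3 (0.23), and its call in gid2-1 was lost under 4 of 15 settings.

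RAB16D, the dim neighbour at the far end of the chromosome 11 group, was called higher in slr1 than in gid2-1 by 2.39 ± 0.65 (adjusted p = 0.012), with signals of 77.5, 55.1 and 88.5 in slr1 and 43.9, 5.95 and 10.0 in gid2-1. On gid2-1, 0 arrays were above the reporter level, so the size of this difference is not resolved. With signals under the reporter level set to that level, the difference was 1.84-fold. The call was not checked under the other settings.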
